A study of Rattus norvegicus with 9 samples.

Results

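Genes of the liver endothelium were measured in 9 rats by messenger RNA sequencing of whole liver, and the rats that received follicle-stimulating hormone (FSH) were compared with those that received vehicle. The members are a list of 45 gene symbols that mark or act in sinusoidal and vascular endothelial cells, looked up by symbol in the deposited count table. Of these, 43 were found among the table's 24496 genes, and Pecam1 and Robo4 were not analysed here. All 43 had reads in each of the 9 libraries and were among the 11924 genes tested. All animals were female wild-type Wistar rats on western diet from 10 weeks of age, ovariectomised after 6 weeks of it and given degarelix, which blocks the receptor for gonadotropin-releasing hormone and so lowers the pituitary gonadotropins. Osmotic pumps delivered vehicle alone in 5 rats (degarelix only) and a daily FSH dose of 6 µg per kg in the other 4 (degarelix + FSH). After 12 days of limited and 7 days of free feeding the rats were fasted for 4 h, and liver was collected at an age of 19 weeks. Animals with intact ovaries or without degarelix were not analysed here, so every comparison is made in animals with low ovarian hormones.

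Liver sinusoids are lined by fenestrated endothelial cells without a continuous basement membrane. These cells take up waste macromolecules through scavenger receptors (Stab1, Stab2) and lectins (Clec4g, Clec4m), respond to vascular endothelial growth factor (VEGF) through Kdr, Flt1 and Flt4, and secrete ligands that act on neighbouring hepatocytes, with Bmp2 and Bmp6 controlling hepcidin and Wnt2 and Rspo3 maintaining pericentral metabolism. Endothelium of larger vessels carries more of the clotting factor Vwf and of tight junction proteins such as Cldn5. The RNA came from whole liver, so fewer or more endothelial cells and less or more RNA per cell cannot be told apart.

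The promoter windows of the 4 members with the smallest p-values are shown because the members share a cell type rather than a pathway, and E26 transformation-specific (ETS) factors such as Erg, itself a member, are known regulators of endothelial promoters. RefSeq promoter windows, from 250 bases before to 50 after the gene start (assembly GRCr8, which is not the build of the counts), were matched by symbol for 29 of the 43 members. Both strands were searched for CCGGAA and AGGAAG, forms of the ETS core, and these matches are in capitals, each strand read as printed, with overlapping matches merged.
Clec4g, chr12:6582864-6583163, minus strand: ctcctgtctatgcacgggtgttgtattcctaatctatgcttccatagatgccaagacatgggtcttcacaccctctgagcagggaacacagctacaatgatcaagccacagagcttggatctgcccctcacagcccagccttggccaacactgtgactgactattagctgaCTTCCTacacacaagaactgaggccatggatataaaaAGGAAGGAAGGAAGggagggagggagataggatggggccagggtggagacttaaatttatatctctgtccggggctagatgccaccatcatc
Clec4m, chr12:6722346-6722645, minus strand: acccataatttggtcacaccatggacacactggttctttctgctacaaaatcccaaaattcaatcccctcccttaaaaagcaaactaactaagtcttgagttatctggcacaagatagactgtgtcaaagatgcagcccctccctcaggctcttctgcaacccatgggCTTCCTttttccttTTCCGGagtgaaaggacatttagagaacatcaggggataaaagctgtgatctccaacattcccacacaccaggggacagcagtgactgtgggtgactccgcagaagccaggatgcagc
Stab1, chr16:6367310-6367609, minus strand: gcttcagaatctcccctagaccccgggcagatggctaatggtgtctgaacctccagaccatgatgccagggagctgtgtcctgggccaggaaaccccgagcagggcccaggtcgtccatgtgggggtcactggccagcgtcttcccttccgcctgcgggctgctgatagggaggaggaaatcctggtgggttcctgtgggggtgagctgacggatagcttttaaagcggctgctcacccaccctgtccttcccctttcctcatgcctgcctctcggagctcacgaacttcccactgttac
Flt4, chr10:34414584-34414883, plus strand: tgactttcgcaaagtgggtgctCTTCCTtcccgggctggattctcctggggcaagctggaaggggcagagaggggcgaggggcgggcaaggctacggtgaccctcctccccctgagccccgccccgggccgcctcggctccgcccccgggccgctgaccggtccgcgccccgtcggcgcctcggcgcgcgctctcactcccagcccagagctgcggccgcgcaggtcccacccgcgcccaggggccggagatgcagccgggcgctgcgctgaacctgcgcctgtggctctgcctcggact

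AGGAAG or its complement stood in 18 of the 29 member windows (62.1%) and in 34.3% of the 27457 windows of the same length, 1 per gene. It occurred 4 times in the window of Clec4g, where 3 of the matches overlap, and once each in those of Clec4m and Flt4, and it was not in that of Stab1. CCGGAA stood in 3 member windows (10.3%, against 15.8% of all windows), those of Clec4m, Kdr and F8a1. The GATA form AGATAA was in 2 member windows (6.9%, against 11.3%) and the SOX form ACAAAG in 5 (17.2%, against 18.3%). A match is a run of letters and not a measured binding site.

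Libraries held between 19295580 and 28672439 counts, of which the 43 genes took 0.0651 to 0.0869%. Alb, the defining hepatocyte transcript, took 10.5 to 16.7% of the counts in 8 libraries and 19.4% in FSH replicate 1. That library also held the highest level of 20 of the 43 members, where 14.6% of all tested genes had their highest level in it. Vehicle replicate 4 stood above the other vehicle libraries, with a median over the members of 0.24 in log2(CPM + 0.1) minus its vehicle mean, against −0.13 to −0.03 in the other 4. Fold changes that moved by more than 1.5 times without either animal are therefore also given without it, apart from those within 0.1 of 0. Members' levels are given as CPM (counts per 1e6 counts of the library, scaled for library composition), and differences as log2 fold changes of FSH over vehicle with their standard errors (SE) from edgeR's quasi-likelihood test. An adjusted p is the Benjamini-Hochberg value over all 11924 genes, with a threshold of 0.05.

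No member passed that threshold (0 of 43), where 0.0335% of all tested genes did (4 of 11924). At an unadjusted p under 0.05 there were 9 members with higher values under FSH (20.9%) and 1 with lower values (2.33%), against 6.42% and 5.14% of all tested genes. DESeq2's Wald test called 2 members, Clec4g and Clec4m (DESeq2 adjusted p = 0.00871 and 0.0228), with higher values under FSH, against 1.48% of all genes in either direction and 0.914% in this one, and limma-voom called 0 (0.0503% of all genes). The members were listed with earlier results of these samples known, so these shares are a description of the list. Fold changes were above 0 in 30 of 43 members (69.8%, against 50.5% of all tested genes). Their lower quartile, median and upper quartile were −0.04, 0.18 and 0.30, beside −0.12, 0.00 and 0.13 over all tested genes. The median was 0.10 without FSH replicate 1 and 0.23 without vehicle replicate 4.

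**Figure D1:**
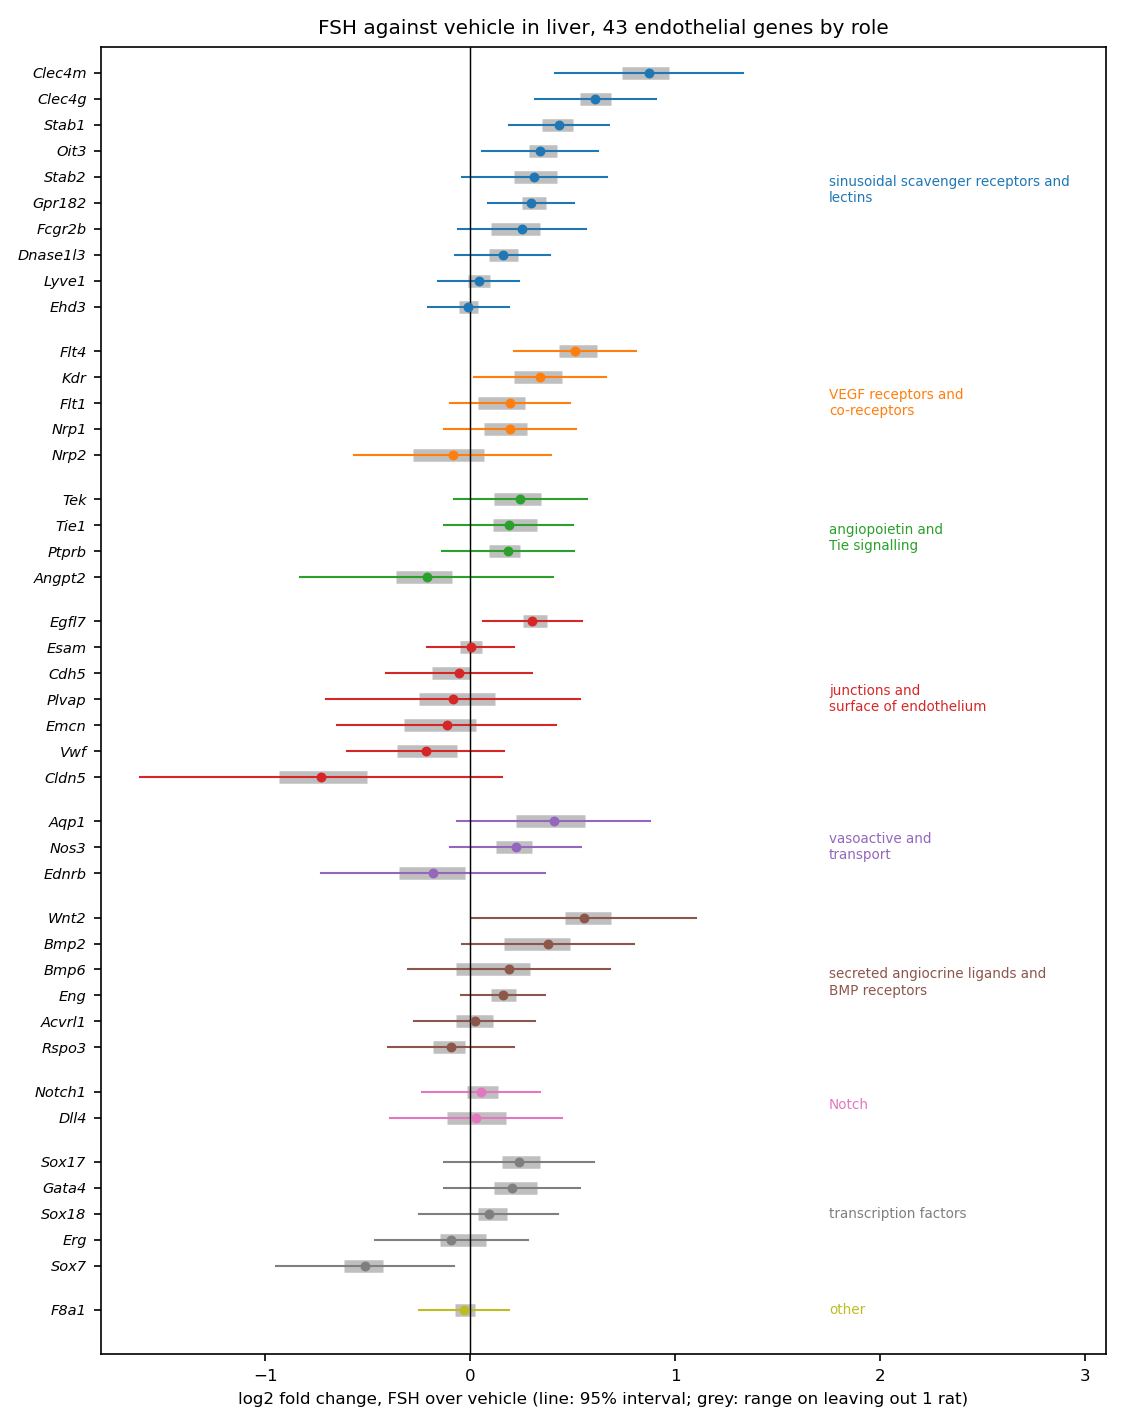
Log2 fold change of FSH over vehicle for the 43 genes, grouped by role and ordered within each group. Points are edgeR estimates from 4 FSH and 5 vehicle rats, thin lines their 95% intervals and grey bars the range over 9 fits that each left out 1 rat. The values run from 0.87 (Clec4m) to −0.73 (Cldn5), and the median is 0.30 among scavenger receptors and lectins and −0.09 among junction and surface genes, whose ranges overlap.

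Scavenger receptors and lectins of the sinusoid included the highest 2 of the 43 fold changes, those of Clec4m and Clec4g. Of 10 members, 9 had fold changes above 0 (against 50.5% of all tested genes) and the median was 0.30. At an unadjusted p under 0.05 there were 5, all with higher values under FSH (against 6.42% of all tested genes). Clec4g (ENSRNOG00000054013), a C-type lectin of sinusoidal cells also called LSECtin, stood at 26.8, 21.4, 26.4 and 23.2 CPM in FSH replicates 1 to 4. In vehicle replicates 1 to 5 it stood at 15.3, 14.4, 18.4, 19.4 and 12.4 CPM. The lowest FSH animal lay above the highest vehicle animal. Means were 24.5 ± 2.62 CPM (SD, n = 4) and 16.0 ± 2.89 CPM (n = 5), a log2 fold change of 0.61 (SE 0.13, adjusted p = 0.190 by edgeR) or 1.53-fold.

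Clec4m (ENSRNOG00000029881), a neighbouring lectin gene of the DC-SIGN family whose reads may be shared with close relatives, stood at 3.73, 2.80, 3.28 and 2.42 CPM with FSH. With vehicle it stood at 1.52, 1.08, 1.98, 1.78 and 2.02 CPM. The groups did not overlap here either, and the log2 fold change was 0.87 (SE 0.21, adjusted p = 0.204 by edgeR), the highest of the 43. Its counts were low, between 29 and 94 reads per library. Stab1 (ENSRNOG00000018434), the scavenger receptor stabilin-1, stood at 27.5, 25.2, 19.97 and 21.3 CPM with FSH. Its vehicle values were 17.3, 17.4, 15.2, 19.96 and 17.2 CPM. The groups were only just separate, with FSH replicate 3 and vehicle replicate 4 almost level, and the log2 fold change was 0.43 (SE 0.11, adjusted p = 0.219 by edgeR). Clec4g, Clec4m and Stab1 were the 3 members whose groups did not overlap with higher FSH values (6.98%, against 2.19% of all tested genes), and 0 members were separated in the other direction (1.92% of all tested genes). With size factors of DESeq2's kind, or with the filter at 1 CPM, the groups of Stab1 overlapped.

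The other lectins and scavengers gave smaller values. Gpr182 (ENSRNOG00000004311), an atypical chemokine receptor of sinusoidal and lymphatic endothelium, was even among the FSH animals at 22.2, 20.6, 21.0 and 21.1 CPM. Vehicle animals spread over 18.2, 15.3, 15.6, 20.8 and 16.5 CPM, of which replicate 4 lay within the FSH range. Its log2 fold change was 0.30 (SE 0.10, adjusted p = 0.312 by edgeR). Oit3 (ENSRNOG00000046365), a secreted zona pellucida domain protein, stood at 16.9, 18.0, 17.2 and 13.4 CPM with FSH and at 15.1, 11.6, 11.8, 15.2 and 10.9 CPM with vehicle. Only FSH replicate 4 lay inside the vehicle range, and the log2 fold change was 0.34 (SE 0.13, adjusted p = 0.363 by edgeR). Stab2 (ENSRNOG00000038948), the stabilin that clears hyaluronan, stood at 31.4, 25.0, 26.3 and 21.9 CPM with FSH and at 23.5, 20.9, 16.8, 27.5 and 16.7 CPM with vehicle. Vehicle replicate 4 lay above 3 of the FSH animals, and the log2 fold change was 0.31 (SE 0.16, adjusted p = 0.492 by edgeR).

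Fcgr2b, the inhibitory Fc receptor that clears immune complexes, had 0.25 (SE 0.14), and 0.10 on leaving out FSH replicate 1 (82.6 CPM, against 46.8 to 64.2 CPM in the vehicle animals). Its family members are similar, so reads may have been split among them. Dnase1l3, a secreted nuclease, had 0.16 (SE 0.10), and 0.09 without FSH replicate 1. Lyve1 (ENSRNOG00000026902), a hyaluronan receptor of sinusoidal and lymphatic endothelium, stood at 49.7, 46.7, 39.3 and 43.0 CPM with FSH and at 46.9, 42.6, 38.8, 47.5 and 41.3 CPM with vehicle. These ranges lay almost on each other, and the log2 fold change of 0.04 (SE 0.09, adjusted p = 0.894 by edgeR) had a 95% interval from −0.16 to 0.24. Ehd3, an endocytic recycling protein, had −0.01 with an interval from −0.21 to 0.19. These intervals do not reach the estimates for Clec4g and Clec4m, but the difference between genes was not tested.

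**Figure D2:**
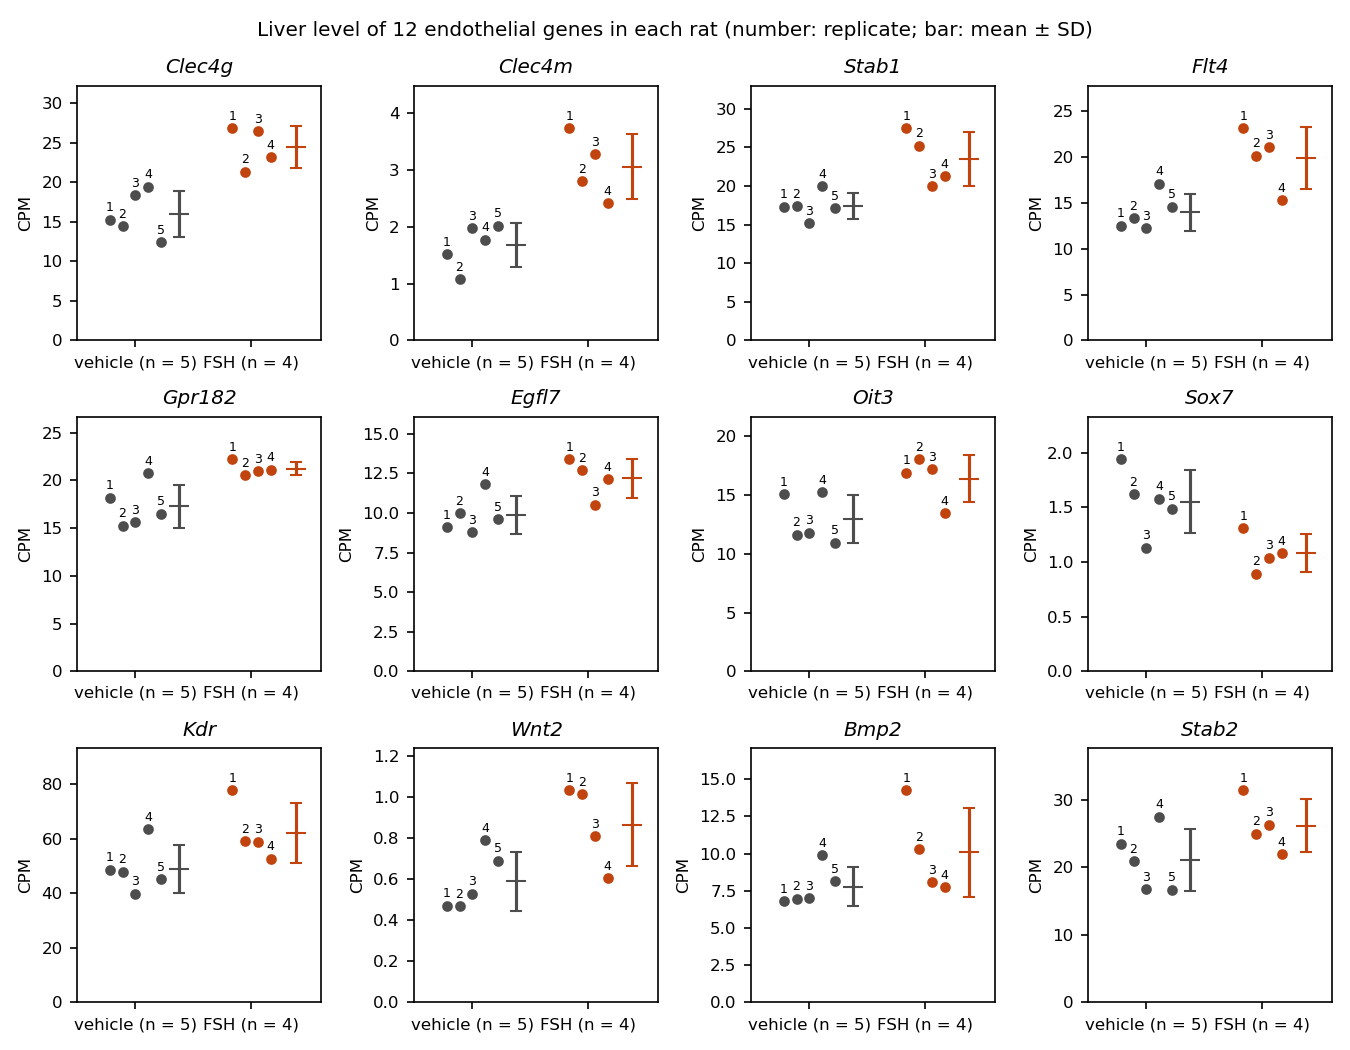
CPM in each rat for the 12 members with the smallest p-values; points are rats numbered by replicate, and bars are mean ± SD of 5 vehicle and 4 FSH rats, on axes that start at 0. Clec4g, Clec4m and Stab1 are separated between groups, Sox7 is the single panel with lower FSH values, and FSH replicate 1 is the highest rat in 10 panels.

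Of 5 VEGF receptors and co-receptors, 4 had fold changes above 0 (against 50.5% of all tested genes), with a median of 0.20. Flt4 (ENSRNOG00000002511), the VEGF-C receptor VEGFR-3, stood at 23.1, 20.1, 21.0 and 15.2 CPM with FSH and at 12.5, 13.3, 12.3, 17.1 and 14.6 CPM with vehicle. FSH replicate 4 lay below vehicle replicate 4, while the other FSH animals lay above every vehicle animal. Its log2 fold change was 0.51 (SE 0.13, adjusted p = 0.225 by edgeR), between 0.43 and 0.62 on leaving out each animal. Kdr (ENSRNOG00000046829), the main VEGF-A receptor, stood at 77.8, 59.2, 59.0 and 52.7 CPM with FSH. Vehicle values were 48.7, 47.9, 39.9, 63.7 and 45.2 CPM, and again vehicle replicate 4 lay among the FSH animals. Kdr had a log2 fold change of 0.34 (SE 0.15, adjusted p = 0.407 by edgeR), and 0.21 without FSH replicate 1. Flt1, which binds VEGF-A and limits its action on Kdr, had 0.20 (SE 0.13) and 0.04 without FSH replicate 1. The co-receptors differed in sign, with 0.19 (SE 0.14) for Nrp1 and −0.09 (SE 0.22) for Nrp2, and these became 0.07 and 0.06 without FSH replicate 1. In that animal Nrp2 was at 26.0 CPM, its lowest level of all, while Kdr and Flt4 were at their highest.

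Angiopoietin and Tie genes did not pass. The receptor Tek (Tie2) had 0.24 (SE 0.15), its partner Tie1 0.19 (SE 0.14) and the endothelial phosphatase Ptprb, which dephosphorylates Tek, 0.18 (SE 0.15), with adjusted p of 0.567, 0.658 and 0.673 in edgeR. Without FSH replicate 1 these were 0.11, 0.11 and 0.09. Angpt2, the ligand that antagonises Tek, had −0.21 (SE 0.28) at 0.424 to 0.943 CPM, or 10 to 21 reads per library, and between −0.36 and −0.09 on leaving out each animal. The Tie1 value was 0.33 without vehicle replicate 4, which at 32.3 CPM was above every other animal.

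Junction and surface genes of endothelium had a median log2 fold change of −0.09, with 2 of 7 above 0 (against 50.5% of all tested genes). Egfl7 (ENSRNOG00000019388), a secreted matrix-bound endothelial protein, stood at 13.4, 12.7, 10.5 and 12.1 CPM with FSH and at 9.11, 9.97, 8.80, 11.8 and 9.62 CPM with vehicle. It was the exception in this group, with 3 FSH animals above every vehicle animal and a log2 fold change of 0.30 (SE 0.11, adjusted p = 0.350 by edgeR). Cdh5 (ENSRNOG00000013324), the adherens junction protein VE-cadherin found on all endothelium, stood at 24.6, 26.7, 30.8 and 23.1 CPM with FSH. Its vehicle values were 29.5, 17.5, 28.5, 30.6 and 30.7 CPM, in which replicate 2 was low. Its log2 fold change was −0.06 (SE 0.16, adjusted p = 0.928 by edgeR, 95% interval −0.41 to 0.30), and −0.19 without vehicle replicate 2. Esam, another junction protein, had 0.00 with an interval from −0.21 to 0.22.

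Vwf (ENSRNOG00000019689), von Willebrand factor, stood at 7.74, 10.2, 13.6 and 14.9 CPM with FSH and at 12.5, 15.3, 11.9, 13.9 and 13.8 CPM with vehicle. FSH replicates 1 and 2 lay below every vehicle animal and the other FSH animals within their range. For Vwf the log2 fold change was −0.22 (SE 0.17, adjusted p = 0.675 by edgeR), and −0.06 without FSH replicate 1. Cldn5, the endothelial tight junction protein, had −0.73 (SE 0.40), the lowest of the 43, on 9 to 37 reads per library. Its vehicle animals split, with replicates 2 and 4 at 1.33 and 1.34 CPM and the other 3 at 0.495 to 0.531 CPM. Emcn, a sialomucin of capillaries and veins, had −0.11 (SE 0.24), −0.32 without FSH replicate 1 and 0.03 without vehicle replicate 4. Plvap, the diaphragm protein of fenestrae and caveolae, had −0.09 (SE 0.28), and −0.15 without vehicle replicate 4. Plvap was lowest in FSH replicate 1 (4.96 CPM), and its value was 0.12 without that animal.

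**Figure D3:**
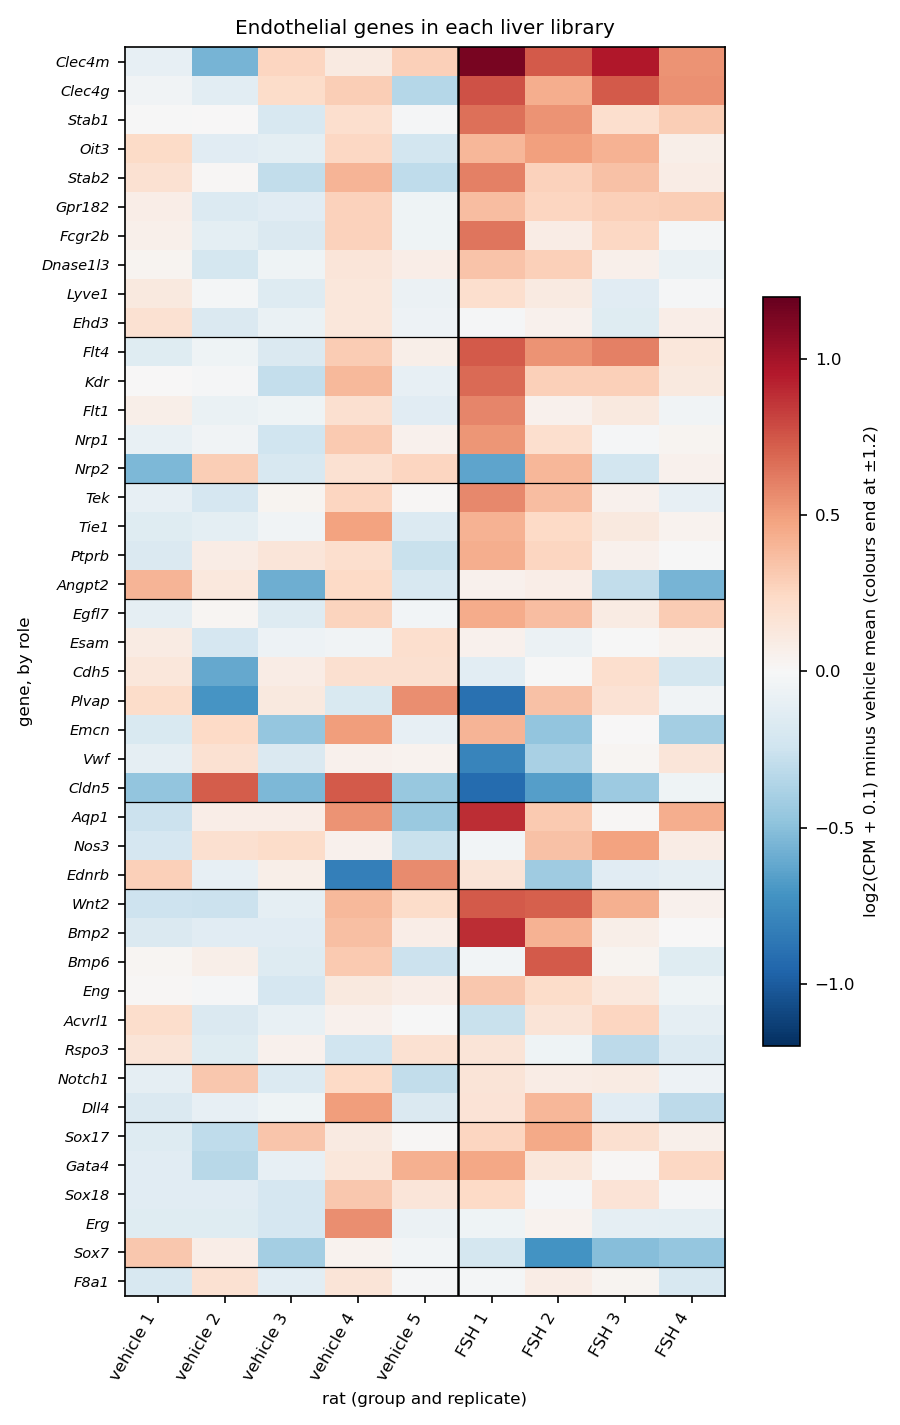
Log2(CPM + 0.1) of the 43 genes (rows, by role) in each rat (columns) relative to the mean of the 5 vehicle rats; red is higher and blue lower, with colours ending at ±1.2. FSH replicate 1 is red in most receptor and lectin rows and blue for Plvap, Nrp2, Vwf and Cldn5, and vehicle replicate 4 is redder than the other vehicle rats.

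Secreted ligands for hepatocytes gave higher values for some members. Wnt2 (ENSRNOG00000051905), a Wnt ligand of pericentral endothelium, stood at 1.03, 1.01, 0.810 and 0.605 CPM with FSH and at 0.471, 0.468, 0.530, 0.789 and 0.691 CPM with vehicle. These rest on 9 to 26 reads per library, and FSH replicate 4 lay within the vehicle range. For Wnt2 the log2 fold change was 0.56 (SE 0.25, adjusted p = 0.427 by edgeR). Rspo3 (ENSRNOG00000011568), the R-spondin that amplifies Wnt signals, stood at 5.52, 4.79, 3.97 and 4.41 CPM with FSH and at 5.55, 4.46, 5.16, 4.18 and 5.63 CPM with vehicle. The animals of both groups were interleaved, and the log2 fold change was −0.09 (SE 0.14, adjusted p = 0.841 by edgeR), and −0.18 without FSH replicate 1.

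Bmp2 (ENSRNOG00000021276) stood at 14.3, 10.3, 8.10 and 7.73 CPM with FSH and at 6.81, 6.98, 6.99, 9.90 and 8.13 CPM with vehicle. FSH replicates 1 and 2 lay above the vehicle range and the others within it. For Bmp2 the log2 fold change was 0.38 (SE 0.19, adjusted p = 0.486 by edgeR), and 0.17 without FSH replicate 1. Bmp6 (ENSRNOG00000013717), the main inducer of hepcidin under iron load, stood at 1.51, 2.64, 1.58 and 1.38 CPM with FSH and at 1.57, 1.62, 1.38, 1.93 and 1.28 CPM with vehicle. FSH replicate 2 alone stood out, and the log2 fold change of 0.19 (SE 0.22, adjusted p = 0.794 by edgeR) became −0.07 without it. Acvrl1 (ALK1), the endothelial receptor for the circulating ligands BMP9 and BMP10, had 0.02 (SE 0.13), and 0.11 without FSH replicate 1. Its co-receptor Eng (endoglin) had 0.16 (SE 0.09), with 3 of 4 FSH animals above every vehicle animal, and 0.10 without FSH replicate 1.

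Vasoactive and transport genes did not pass. Aqp1, a water channel also carried by red cells and bile duct cells, had 0.41 (SE 0.21, adjusted p = 0.498 by edgeR), and 0.22 without FSH replicate 1, where it was at 71.8 CPM. Nos3, endothelial nitric oxide synthase, had 0.22 (SE 0.14), and 0.13 without FSH replicate 3. The endothelin receptor Ednrb had −0.18 (SE 0.25), which lay between −0.35 (without vehicle replicate 4) and −0.025 (without vehicle replicate 5) on leaving out each animal. The Notch ligand Dll4 and the receptor Notch1 had 0.03 (SE 0.19) and 0.05 (SE 0.13), with 95% intervals from −0.39 to 0.45 and −0.24 to 0.34. Without vehicle replicate 4 they had 0.18 and 0.11.

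Among transcription factors, Sox7 (ENSRNOG00000012049), of the SOXF family, was the member with lower FSH values at the smallest p. It stood at 1.31, 0.893, 1.04 and 1.08 CPM with FSH and at 1.94, 1.62, 1.13, 1.58 and 1.49 CPM with vehicle. FSH replicate 1 and vehicle replicate 3 crossed. The groups of Sox7 were separate on leaving out either of them, but leaving out a crossing animal favours separation. The log2 fold change was −0.51 (SE 0.20, adjusted p = 0.373 by edgeR) on 22 to 45 reads per library. The other SOXF genes had values of opposite sign, 0.24 (SE 0.17) for Sox17 and 0.09 (SE 0.15) for Sox18, the former 0.16 without FSH replicate 2 and the latter 0.18 without vehicle replicate 4. Gata4, which specifies the sinusoidal fate and is also present in stellate cells, had 0.20 (SE 0.15), which became 0.12 without FSH replicate 1 and 0.32 without vehicle replicate 5. Erg, an ETS factor of all endothelium, had −0.09 (SE 0.17). F8a1, which encodes a huntingtin-associated protein, had −0.03 (SE 0.10).

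**Figure D4:**
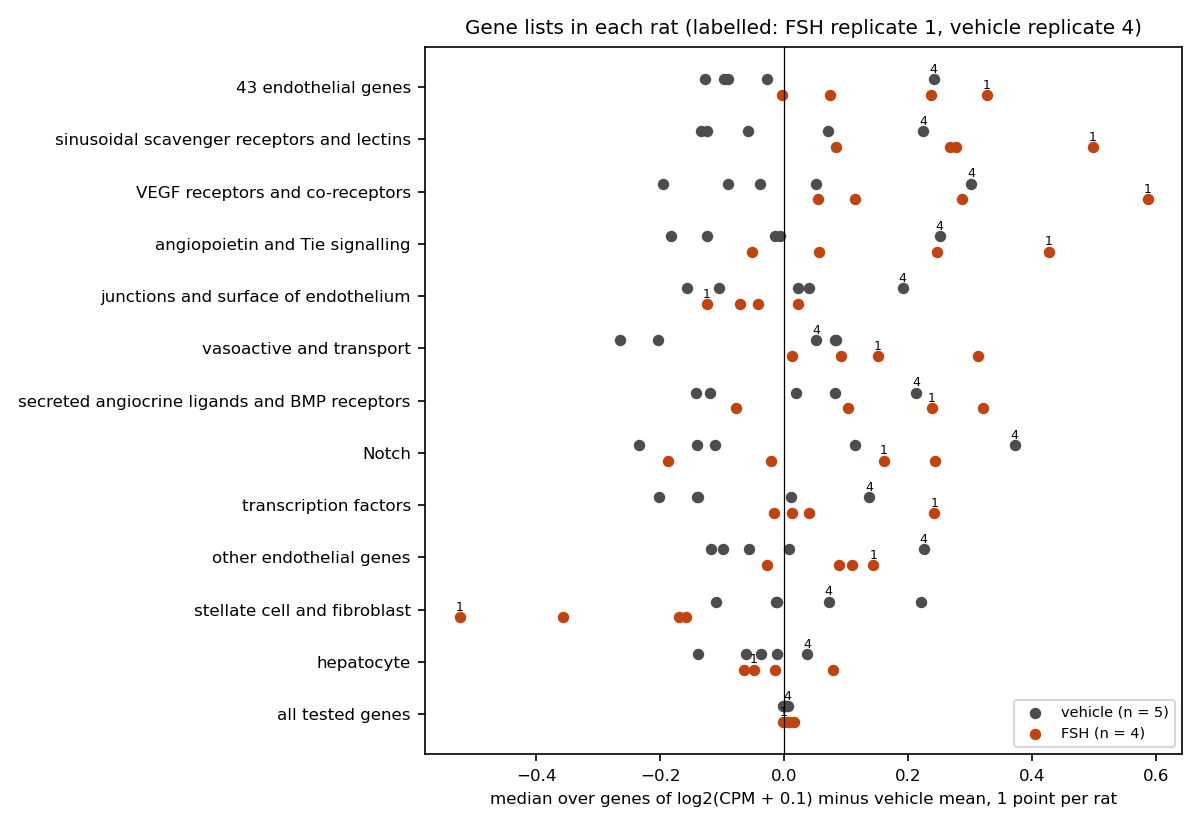
Median over the genes of each list of log2(CPM + 0.1), set against the mean of the vehicle rats, 1 point per rat (5 vehicle, 4 FSH). FSH replicate 1 and vehicle replicate 4 are numbered: vehicle replicate 4 lies at 0.22 among scavenger receptors and lectins, where the FSH rats lie between 0.08 and 0.50, and the stellate cell list is separated between groups in the other direction.

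The role groups can be set beside each other by animal. Medians of the scavenger receptors and lectins lay at 0.50, 0.28, 0.27 and 0.08 in FSH replicates 1 to 4 and between −0.13 and 0.22 in the vehicle animals, relative to the vehicle mean. For VEGF receptors the FSH animals lay at 0.59, 0.29, 0.11 and 0.05, and the vehicle animals between −0.20 and 0.30. For junction and surface genes they lay at −0.12, −0.07, 0.02 and −0.04, within the vehicle range of −0.16 to 0.19. The groups overlapped in all of these, and in each of these 3 lists vehicle replicate 4 was the highest vehicle animal. Leaving it out gave 8 members whose groups did not overlap, all with higher FSH values (against 3.16% of all tested genes), the added ones being Flt4, Gpr182, Egfl7, Kdr and Tie1. Without FSH replicate 4 there were 7, with Flt4, Oit3, Wnt2 and Eng added (against 4.22% of all tested genes). Over all members, vehicle replicate 4 had the highest vehicle median (0.24) and FSH replicate 4 the lowest FSH median (−0.003). Leaving out such an animal favours separation, so these counts are a description. Without FSH replicate 1, 3 members were separated with higher FSH values (against 3.53% of all tested genes) and Sox7 with lower values. The share of all tested genes separated with lower values in that fit was not computed. The remaining fits without 1 animal gave 2 to 4 with higher FSH values (against 2.82 to 3.76% of all tested genes).

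Other genes of these pathways, from lists chosen with earlier results of these data known, had no member past the threshold. Of 42 other endothelial genes tested, 30 had fold changes above 0 (against 50.5% of all tested genes) with a median of 0.09. The medians of this list by animal overlapped, with vehicle replicate 4 (0.23) above every FSH animal (−0.03 to 0.14). Its smallest p-values belonged to Gja5, a connexin of arteries (−0.55, SE 0.23), and Cd93, an endothelial C-type lectin (0.37, SE 0.19). Of 8 VEGF and angiopoietin ligands and hypoxia factors, 4 were above 0 (median 0.04), with Vegfa at 497 ± 21.8 CPM (SD, n = 4) under FSH against 424 ± 46.2 CPM (n = 5) under vehicle (0.23, SE 0.09, adjusted p = 0.390 by edgeR). Vegfb had −0.30 (SE 0.22), and −0.19 without FSH replicate 1. Of 14 signalling partners of these receptors, left after a gene was taken out of the list, 8 were below 0. The smallest p-values there belonged to the kinase Mapk3 (−0.25, SE 0.07) and Gipc1, a PDZ-domain protein that binds neuropilin-1 (−0.21, SE 0.10).

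Target, receptor and ligand genes gave mixed values, where 50.5% of all tested genes were above 0. These counts mix such roles and do not measure a response. Of 17 BMP targets, receptors, ligands and iron-sensing genes, 13 were above 0 with a median of 0.15. The smallest p-values there belonged to Id3, a direct BMP target (0.42, SE 0.14), and Tfr2, an iron sensor of hepatocytes (0.29, SE 0.10). Of 17 Wnt target and receptor genes, 10 were above 0 with a median of 0.09, and the receptors Lrp6 (0.48, SE 0.12) and Fzd4 (0.49, SE 0.18) had the smallest p-values. Of 9 Notch ligands, receptors and targets, 5 were above 0, while Notch3, a receptor of mural cells (−0.53, SE 0.18), and the target Heyl (−0.58, SE 0.22) led that list downward.

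Markers of other cells are given beside these values, and their part in the results was not tested. Of the 11924 genes tested, 6022 had fold changes above 0 and 5902 below. All 9 stellate cell and fibroblast markers tested had fold changes below 0 (median −0.25), and their summed level was 173 to 206 CPM with FSH and 220 to 286 CPM with vehicle, without overlap. Col3a1 had −0.45 (SE 0.11, adjusted p = 0.211 by edgeR and 0.0173 by DESeq2) and Col1a1 −0.92 (SE 0.37), and the latter −0.49 without vehicle replicate 4. Smooth muscle and pericyte markers were below 0 in 4 of 5 (14.3 to 23.0 CPM with FSH, 18.5 to 32.4 CPM with vehicle), where the pericyte gene Rgs5 had 0.37 (SE 0.21). All 4 red cell genes were above 0, with summed levels of 121 to 490 CPM with FSH and 75.9 to 157 CPM with vehicle, with Hbb at 1.54 (SE 0.35, adjusted p = 0.204 by edgeR and 0.00203 by DESeq2) and Hba-a2 at 0.80 (SE 0.38). FSH replicate 3 held the highest of these sums, and without it Hbb had 1.10 and Hba-a2 0.19. Kupffer cell and macrophage markers were below 0 in 8 of 11 (551 to 861 and 348 to 916 CPM), hepatocyte markers in 6 of 10 (171367 to 276635 and 194604 to 240102 CPM), cholangiocyte markers in 3 of 5 (9.33 to 17.7 and 11.9 to 20.7 CPM) and lymphatic endothelial markers in 4 of 5 (114 to 137 and 103 to 117 CPM). Within the first 2 of those lists the smallest p-values belonged to Timd4 (0.80, SE 0.62) and Cd68 (−0.28, SE 0.26, and −0.16 without FSH replicate 1), and to Fgb (0.55, SE 0.18) and Tat (−0.88, SE 0.31). In the cholangiocyte and lymphatic lists they belonged to Cftr (−0.74, SE 0.34) and Krt7 (−0.76, SE 0.41), and to Prox1 (0.31, SE 0.09) and Reln (−0.20, SE 0.10). Hepatocytes also express Prox1, and Reln is also on the stellate cell list. Most of the lymphatic sum came from Prox1 (means 93.8 CPM with FSH, 75.6 CPM with vehicle) and Reln (23.8 and 27.3 CPM). Levels were low for Timd4 (0.108 to 1.38 CPM), Cftr (0.216 to 0.720 CPM) and Krt7 (0.198 to 0.742 CPM). Lymphocyte markers (7.83 to 10.4 and 5.69 to 11.6 CPM) and neutrophil markers (1.27 to 3.84 and 1.12 to 3.47 CPM) were low in both groups, with 3 of 5 and 3 of 3 above 0. There Nkg7 had −0.33 (SE 0.27, and −0.14 without vehicle replicate 4), Prf1 0.16 (SE 0.16), S100a9 0.56 (SE 0.45) and Fcnb 0.27 (SE 0.37, and 0.71 without vehicle replicate 4). No marker on these lists was at 0 in all libraries.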

How the data were processed

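Libraries were paired-end and strand-specific, from messenger RNA of snap-frozen liver, 1 per animal, per the labels' protocols. The authors deposited raw counts of reads per gene, as whole numbers. Build rn6 and the tools STAR, edgeR and DESeq2 appear in the submitters' processing notes; annotation and strand setting are not given in the sources.

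The comparison of 4 FSH with 5 vehicle libraries used edgeR 4.0.16 in R 4.3.3 (2-sided quasi-likelihood test, TMM scaling, low counts filtered by group, Benjamini-Hochberg adjustment over 11924 genes, which hold 99.96% of counts). CPM are counts per 1e6 of the scaled library total, where 1 read is worth 0.0353 to 0.0531 CPM. A standard error is the fold change over the root of its F statistic. Alternatives were DESeq2 1.42.0, limma-voom (limma 3.58.1) with quality weights, other scalings and filters, an FDR of 0.10, a replicate block and leaving out each animal. The steps were tested on simulated counts, where recovery was required only for changes larger than that of any member.

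The members and lists were chosen with earlier results of these data known. Values of every animal are given for the 12 members with the smallest p and for Cdh5, Kdr, Stab2, Lyve1, Bmp2, Bmp6, Wnt2, Rspo3 and Vwf in any case. From the other lists, the 2 smallest p-values were taken where none passed the threshold. One gene was taken out of the list of signalling partners afterwards and is not reported here. No library repeated another: between animals of a group, chi-square over its degrees of freedom was at least 25.9. The labels do not tie equal replicate numbers across groups.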

Additional observations from a re-analysis of the deposited data

Results flagged for a closer look

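Dixon's test asked, in 192 sets of values, whether the highest or lowest animal of a group lay far from the rest; it did in 11 sets, with about 9.6 given by chance. Vehicle replicate 4 was the highest of its group in Tie1 (32.3 CPM, next 22.4), Erg (6.59 CPM, next 4.25), Dll4 (7.69 CPM, next 5.19), Id3 (30.7 CPM, next 21.5), Col1a1 (19.8 CPM, next 8.96) and Fcnb (0.868 CPM, next 0.419), and in the median of the 43 members (0.24, next −0.03). Vehicle replicate 2 was lowest in Cdh5 (17.5 CPM, next 28.5) and Prf1 (3.53 CPM, next 5.02) and highest in Tat (3115 CPM, next 1627). In the FSH group, replicate 2 was highest in Bmp6 (2.64 CPM, next 1.58).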

How the results depend on the processing

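In edgeR no member passed in any alternative, including an FDR of 0.10, and DESeq2 called 2. The smallest adjusted p of a member lay between 0.141 and 0.350 over fits that left out 1 animal. Over those fits, members above 0 numbered 27 to 33 and their median log2 fold change lay between 0.10 and 0.23. Members separated with higher FSH values numbered 2 to 8 in those fits. Of all tested genes, 2.82 to 4.22% were separated in that direction in those fits, against 2.19% with every animal. Sox7 was separated with lower FSH values without vehicle replicate 3 and without FSH replicate 1. The share of all tested genes separated with lower values in those fits was not computed. Across the scalings the median of all genes lay between −0.0152 and 0.0019.

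In all, 30 of 43 members kept their direction in each of the 9 fits that left out 1 animal, 24 of them above 0 and 6 below. The share of all tested genes that did so was not computed, and such fits share most of their animals, so this count is a description. Ranges over those fits that crossed 0 were −0.070 to 0.11 for Acvrl1, −0.067 to 0.29 for Bmp6, −0.19 to 0.0008 for Cdh5, −0.11 to 0.18 for Dll4, −0.056 to 0.038 for Ehd3, −0.32 to 0.029 for Emcn and −0.15 to 0.078 for Erg. They were −0.051 to 0.055 for Esam, −0.076 to 0.023 for F8a1, −0.013 to 0.095 for Lyve1, −0.018 to 0.14 for Notch1, −0.28 to 0.065 for Nrp2, −0.25 to 0.12 for Plvap, and −0.026 to 1.11 for the macrophage gene Timd4. Esam also turned negative with limma-voom (−0.025), size factors of DESeq2's kind (−0.0027), library totals alone (−0.013) and the filter at 1 CPM (−0.0047). The cause was not tested.

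With the replicate number as a block, 0 members passed, 30 were above 0 and their median was 0.15, and 4 members changed sign: Notch1 (−0.0043), Cdh5 (0.012), Plvap (0.050) and Dll4 (−0.013). Same-numbered animals did not deviate together (correlations 0.028, 0.004, 0.043 and −0.052, and 0 of 4 FSH animals correlated best with their own number). Genes under about 40 reads per library, such as Wnt2, Cldn5, Angpt2 and Sox7, rest on few reads. Clec4m (29 to 94 reads), Bmp6 (24 to 65) and Sox17 (36 to 76) also fell under about 40 reads in some libraries. How far depth sets the spread of these genes was not tested.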
